A study of Canis lupus familiaris with 15 samples.

Results

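The respiratory chain and ATP synthase genes of Madin-Darby canine kidney (MDCK) cells, a dog kidney epithelial line in long use, were followed through treatment with hepatocyte growth factor (HGF) with and without MAPK pathway inhibitors. Members were taken by gene symbol from the array's platform annotation: symbols starting with NDUFA, NDUFB, NDUFC, NDUFS or NDUFV, with UQCR, with SDH followed by A to D, with COX4 to COX8, or with ATP5. This gave 74 genes of 15115 annotated, read by 146 probe sets. For each gene the brightest probe set over all arrays was used, and 72 of the 74 genes reached a log2 intensity of 4 on at least 3 of the 15 arrays. The 72 comprised 58 genes of the 5 complexes, 11 assembly factors and 3 paralogues (COX4I2, COX6A2 and COX7A2L). The 58 were 33 of complex I, 4 of complex II, 7 of complex III, 4 of complex IV and 10 of ATP synthase. The last 10 include ATP5IF1, an inhibitor of the enzyme that is not one of its subunits.

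Every culture was held on Transwell filters for 7 days in MEM with 5% FBS. The Control arrays (n = 4) came from cells left in medium, and the HGF arrays (n = 4) from cells given HGF at 100 ng/ml for 24 h. The HGF + PD arrays (n = 4) also received a compound that the labels spell PD09859, at 50 uM, and the HGF + UO arrays (n = 3) a compound spelled UO126, at 10 uM. Both names were read as inhibitors of MEK, the kinase that activates ERK, and the series asks which HGF-regulated genes lie under the MAPK pathway. The labels call the arrays biological replicates of 1 cell line and do not say whether cultures were grown on separate days. Cells given an inhibitor without HGF were not analysed here, the sources used here name no vehicle, and the doses of the inhibitors differ, so their values stand side by side without a test between them.

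The respiratory chain sits in the inner mitochondrial membrane. Complex I takes electrons from NADH and complex II from succinate, complex III passes them to cytochrome c, and complex IV reduces oxygen, while complexes I, III and IV pump protons. ATP synthase lets the protons flow back and makes ATP. Kidney tubule epithelium is rich in mitochondria, which pay for its ion transport. Most subunits are encoded in the nucleus and imported; the subunits encoded by mitochondrial DNA were not analysed here.

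Values are log2 of probe set intensities, and a difference is the first group's mean minus the second's, with the standard error (SE) of a linear model (limma) fitted to all 15 arrays. A gene is called higher or lower when its p-value, adjusted by the Benjamini-Hochberg method over the 24904 probe sets kept, is under 0.05. Intensities of different probe sets depend on the probes, so levels are compared between groups and not between genes. A lower intensity does not tell less RNA per cell from fewer cells that hold the RNA.

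The arrays were alike in overall brightness, with median intensities from 40.4 to 42.6, and 9 of 10 listed kidney epithelium markers were kept. The summed intensity of these 9 was 114104 to 123205 on the Control arrays, 84627 to 101462 with HGF, 81206 to 101393 with HGF + PD and 86893 to 95533 with HGF + UO. Of the listed fibroblast, endothelium and leukocyte markers, 3 each were kept. Their sums stayed between 212 and 248 for fibroblasts and between 417 and 518 for endothelium over all groups. The leukocyte sum was 114 to 118 in Control and 130 to 373 with HGF, where CD68 rose. Of the 3 leukocyte markers kept, 1 was called higher with HGF, 1 lower and 1 not called (differences from -0.15 to 3.03). The log2 ratio of the 3' to the 5' actin control probe sets, a measure of how complete the labelled RNA is, was 2.17 to 2.29 in Control, 1.38 to 1.56 with HGF, 2.08 to 2.23 with HGF + PD and 2.11 to 2.19 with HGF + UO. It was thus lower on every HGF array than on any other array, and its part in the differences below was not tested. Replicate 2 of HGF was the lowest HGF array, apart from the rest, for NDUFV1, NDUFA6, NDUFB6, ATP5J2 and SDHAF4. For comparisons with the HGF arrays, the counts of all members called higher or lower are given with and without it. Counts of genes without overlap between arrays, counts by size of change and counts by complex are given with it.

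HGF lowered more respiratory chain genes than it raised. Of the 72 genes, 34 were lower and 15 higher in HGF than in Control, and 23 were not called; without HGF replicate 2 the counts were 32 lower and 17 higher. Over all probe sets tested, 55.6% were called, 29.2% lower and 26.3% higher. Members are bright, and among the 10696 probe sets with a mean log2 of at least 8.73 73.1% were called, 38% lower and 35.1% higher, against 47.2% and 20.8% of the members. The median difference was -0.10 over the members and -0.02 over all probe sets. Most changes were small: 9 genes were called with a change of at least 0.5, and these were 5 complex I subunits, UQCRFS1 and 3 assembly factors, where 32.4% of all probe sets changed that much. All HGF arrays lay below all Control arrays in 32 genes and above them in 15, and 51.7% of all probe sets had no overlap.

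**Figure D1:**
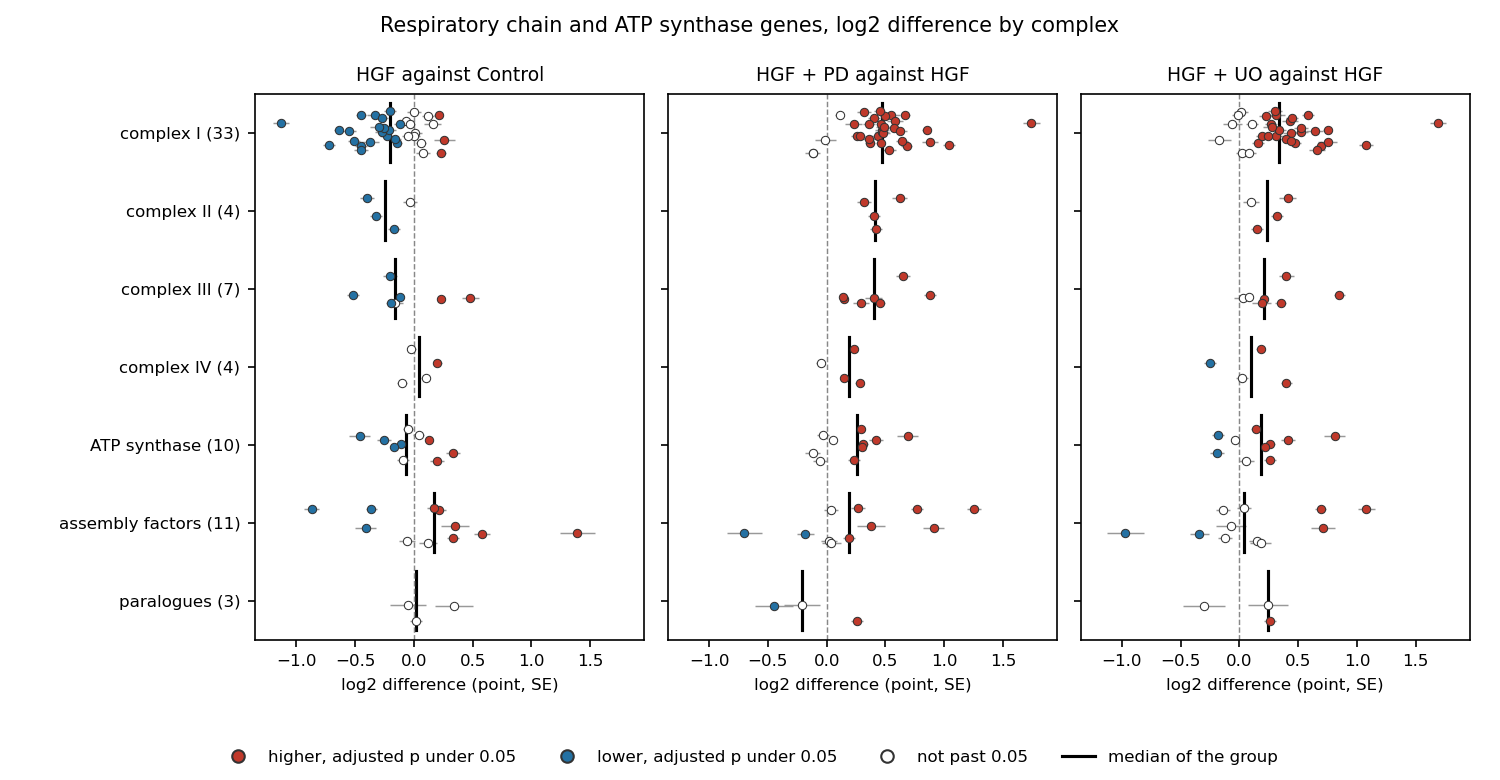
Each point is 1 gene, placed by its log2 difference on the horizontal axis with its SE, in rows by complex with the number of genes in brackets. Red marks higher, blue lower and white not called at an adjusted p of 0.05, and the black line is the row's median. In the left panel complex I lies mostly left of 0 (median -0.20), and in the other panels, which share the HGF arrays with the left one, it lies mostly right of 0 (medians 0.47 and 0.34).

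Complex I, the largest group with 33 of the 72 genes, held 20 of the 34 genes lowered by HGF. A further 3 of its subunits were higher and 10 were not called, with a median difference of -0.20. Its share lower was 60.6%, beside 75% of the 4 subunits in complex II and 57.1% of the 7 in complex III. Among the bright probe sets 38% were lower and 35.1% higher, and among all probe sets 29.2% and 26.3%. The share of complex I higher was 9.09%. The 27 accessory subunits, which surround and stabilise the catalytic core, had 17 lower and 2 higher, and the 6 core subunits had 3 lower and 1 higher. By name, 8 of 12 NDUFA genes, 7 of 9 NDUFB genes, 4 of 7 NDUFS genes and 1 of 3 NDUFV genes were lower. Neither NDUFC gene was called by limma on its brightest probe set, with 0 at an unadjusted p under 0.05 there. With the mean of its kept probe sets NDUFC1 was called lower by limma (-0.20, adjusted p 0.000136).

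NDUFB5, an accessory subunit of the membrane arm, fell the most of the 72 members when each was read by its brightest probe set. Its log2 intensities were 12.24, 12.23, 12.17 and 12.29 on the Control arrays and 11.19, 10.91, 11.19 and 11.12 on the HGF arrays. The groups were far apart, with a difference of -1.13 ± 0.07 (95% interval -1.27 to -0.99, adjusted p 2.11e-09), which is a fall by 54.4% in intensity. A dimmer probe set of NDUFB5 gave -0.35, also called lower, so the direction was shared by both probe sets and the size was not.

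NDUFS6, a small accessory subunit that binds zinc, read 12.40, 12.22, 12.29 and 12.19 in Control and 11.52, 11.46, 11.54 and 11.71 with HGF, a difference of -0.72 ± 0.05 (adjusted p 4.11e-08). NDUFB10, an accessory subunit of the membrane arm, read 13.35, 13.25, 13.25 and 13.31 in Control and 12.64, 12.61, 12.67 and 12.71 with HGF, a difference of -0.64 ± 0.04 (adjusted p 4.45e-09). In both genes every HGF array lay below every Control array. A second NDUFB10 probe set gave -0.71. NDUFS5 and NDUFB7, accessory subunits of the same arm, were lower by -0.55 ± 0.06 and -0.51 ± 0.05.

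The core subunits did not share 1 direction. NDUFV1, which binds FMN and takes electrons from NADH, read 12.22, 12.28, 12.35 and 12.17 in Control and 12.04, 11.69, 12.04 and 12.05 with HGF (-0.30 ± 0.07, adjusted p 0.00205). NDUFV2, its partner with an iron-sulfur cluster, read 12.02, 11.95, 11.93 and 12.07 in Control and 12.23, 12.20, 12.18 and 12.18 with HGF (0.21 ± 0.04, adjusted p 0.00116). So NDUFV1 fell and NDUFV2 rose, each with no overlap between the groups. NDUFS3 and NDUFS8, core subunits of the arm that leads electrons to ubiquinone, were lower by -0.45 ± 0.06 and -0.37 ± 0.07. NDUFS7, which holds the last iron-sulfur cluster of that path, had means of 11.22 in both groups, and its difference of 0.00 had an interval of -0.13 to 0.13. NDUFS1, the largest core subunit, differed by 0.16 ± 0.07 on its brightest probe set and was not called (adjusted p 0.0701).

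The other subunits of complex I that rose were accessory. NDUFV3 differed by 0.26 ± 0.09 (adjusted p 0.0226, above 0.05 in 4 of 17 alternative settings) and NDUFB4 by 0.23 ± 0.04 (adjusted p 0.000443). NDUFAB1, the mitochondrial acyl carrier protein and also a complex I subunit, read 12.46, 12.48, 12.31 and 12.49 in Control and 12.57, 12.36, 12.43 and 12.44 with HGF. These overlapped, and the difference was 0.01 with an interval of -0.12 to 0.15.

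All subunits of complex II were measured. SDHB, the iron-sulfur subunit, read 11.77, 11.73, 11.76 and 11.76 in Control and 11.19, 11.32, 11.47 and 11.43 with HGF (-0.40 ± 0.06, adjusted p 7.54e-05). SDHC, a membrane anchor, read 12.56, 12.57, 12.53 and 12.65 in Control and 12.32, 12.17, 12.29 and 12.26 with HGF (-0.32 ± 0.05, adjusted p 3.67e-05). Both fell with no overlap between arrays. SDHA, the flavoprotein that oxidises succinate, fell by 0.17 on the log2 scale (adjusted p 0.00689). SDHD, the other anchor, differed by -0.03 with an interval of -0.16 to 0.11 and was not called.

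Complex III had members moving both ways. Of 7 subunits 4 were lower and 2 higher, with a median of -0.16. The shares were 57.1% and 28.6%, beside 38% and 35.1% of the bright probe sets and 29.2% and 26.3% of all. UQCRFS1, the Rieske iron-sulfur protein, read 13.45, 13.58, 13.63 and 13.57 in Control and 13.10, 12.98, 13.07 and 13.01 with HGF (-0.52 ± 0.05, adjusted p 3.21e-07), and a second probe set gave -0.50. UQCRC1, UQCRQ and UQCRH, a core protein, a small subunit and the hinge protein, were lower by -0.20, -0.19 and -0.12. UQCRC2, the other core protein, differed by -0.16 (adjusted p 0.069) and was not called.

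The small subunits UQCR10 and UQCR11 rose. UQCR11 read 10.49, 10.65, 10.47 and 10.78 in Control and 11.15, 11.09, 11.01 and 11.08 with HGF (0.48 ± 0.07, adjusted p 4.59e-05). UQCR10 read 11.91, 11.83, 11.89 and 11.93 in Control and 12.15, 12.10, 12.14 and 12.10 with HGF (0.23 ± 0.03, adjusted p 2.22e-05). Every HGF array lay above every Control array in both. UQCR11 has 6 probe sets kept: the brightest and 2 others were called higher (0.48, 0.35 and 0.34), the dimmest was called lower (-0.23), and the remaining 2 were not called.

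Complex IV and ATP synthase changed little in median. The 4 complex IV subunits measured had a median difference of 0.04, which lay between -0.01 and 0.09 over the alternative settings. COX4I1, the subunit through which ATP is thought to regulate the enzyme, read 13.42, 13.36, 13.37 and 13.48 in Control and 13.58, 13.70, 13.52 and 13.63 with HGF and was the only one called (0.20 ± 0.04, adjusted p 0.00129). COX5B, COX8A and NDUFA4, the last a complex IV subunit in spite of its name, differed by 0.10, -0.10 and -0.02. COX5B and COX8A were close to the threshold, with adjusted p of 0.0671 and 0.0585, and each passed it in some alternative settings.

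Of the 10 ATP synthase genes 4 were lower and 3 higher, with a median of -0.07. These shares, 40% and 30%, lay near those of the bright probe sets, 38% and 35.1%. Over all probe sets they were 29.2% and 26.3%. ATP5J2, an older symbol for the gene of the membrane subunit f, read 13.83, 13.70, 13.84 and 13.77 in Control and 13.40, 13.13, 13.38 and 13.40 with HGF (-0.46 ± 0.09, adjusted p 0.000393). ATP5PO, which encodes the stalk protein that confers sensitivity to oligomycin, read 14.25, 14.30, 14.33 and 14.37 in Control and 14.20, 13.87, 14.07 and 14.11 with HGF (-0.25 ± 0.06, adjusted p 0.0013). Every HGF array of both genes was below every Control array.

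ATP5IF1, which encodes the inhibitor that blocks ATP synthase when it runs backwards, read 13.67, 13.71, 13.63 and 13.73 in Control and 14.07, 14.08, 13.98 and 13.94 with HGF. It rose by 0.33 ± 0.06 (adjusted p 0.000172), and its other probe sets gave 0.68 and 0.59. The subunits of the F1 part differed little. ATP5F1B (beta) was higher by 0.13 ± 0.03 and ATP5F1C (gamma) lower by -0.11 ± 0.04. ATP5F1A (alpha) and ATP5F1D (delta) were not called at -0.09 and -0.05. The call of ATP5F1C was lost in 8 of 17 alternative settings. The genes of the identical c subunit of the rotor went apart, with ATP5MC1 higher by 0.20 ± 0.06, ATP5MC3 lower by -0.17 ± 0.03, and ATP5MC2 not called at 0.04.

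**Figure D2:**
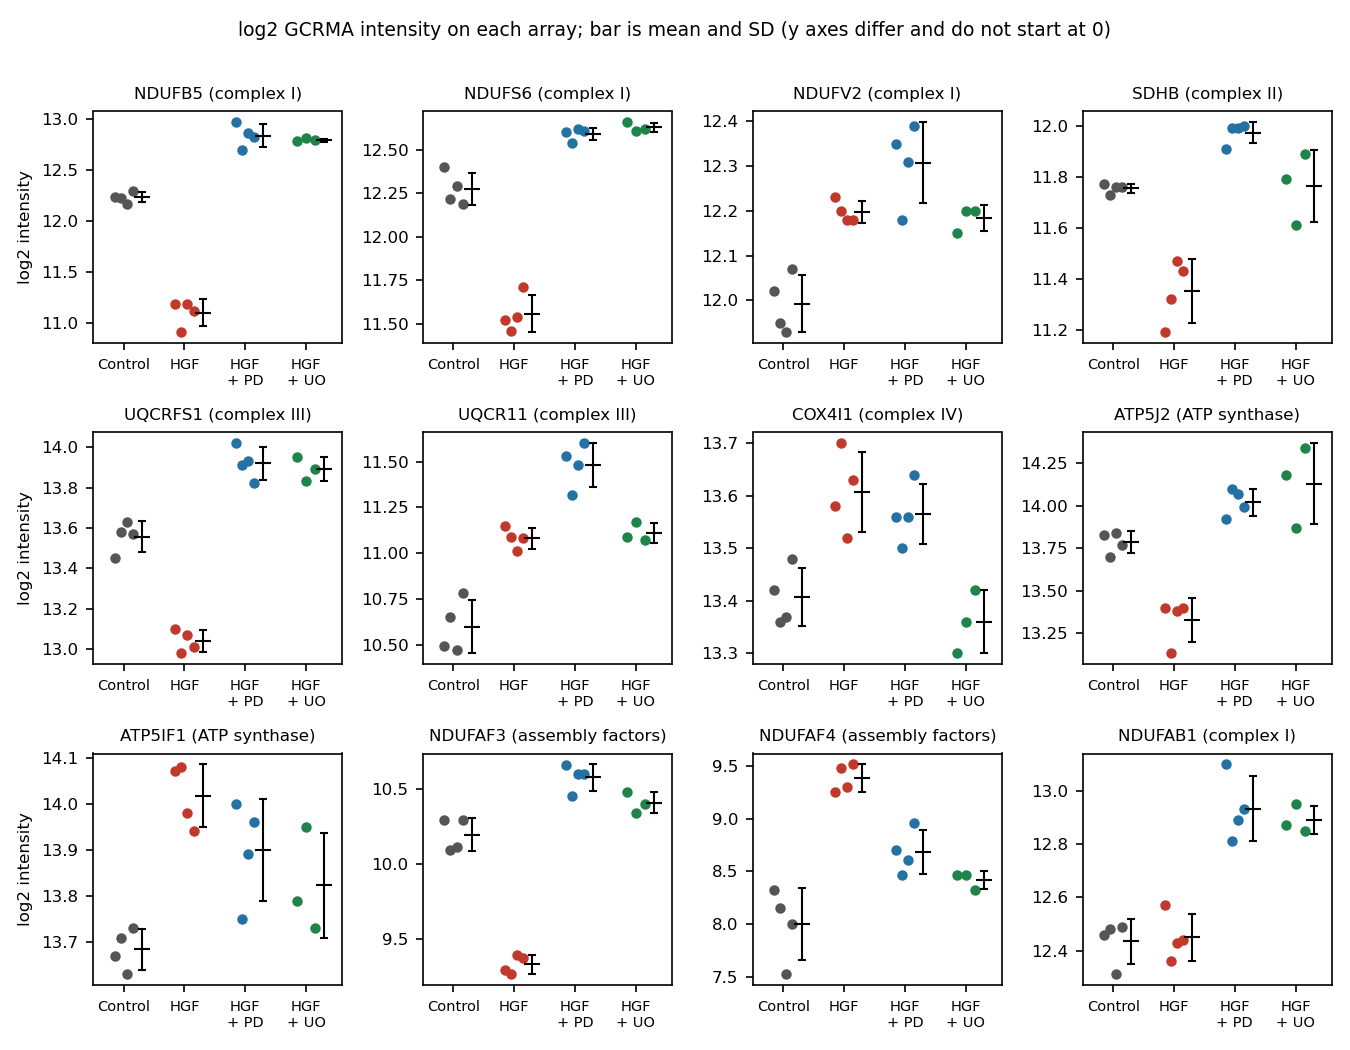
Log2 intensity of 12 genes on each of the 15 arrays, with 1 dot per array and the group mean and SD as a bar. The vertical axes differ between panels and do not start at 0. NDUFB5, NDUFS6, SDHB, UQCRFS1, ATP5J2 and NDUFAF3 have their lowest dots in HGF, NDUFAF4 and ATP5IF1 have their highest mean there, and NDUFAB1 is higher in both inhibitor groups than in Control or HGF.

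Assembly factors, which build the complexes and then leave, held the steepest rise. Of 11, 6 were higher and 3 lower with HGF, with a median of 0.17. The shares were 54.5% and 27.3%, beside 35.1% and 38% of the bright probe sets and 26.3% and 29.2% of all. NDUFAF4, a complex I assembly factor, read 8.32, 8.15, 7.52 and 8 in Control and 9.25, 9.48, 9.30 and 9.52 with HGF. The difference was 1.39 ± 0.15 (95% interval 1.07 to 1.70, adjusted p 1.29e-06), a rise of 161% in intensity, and a second probe set gave 1.09. NDUFAF3, which is known to bind NDUFAF4 during assembly, read 10.29, 10.09, 10.11 and 10.29 in Control and 9.29, 9.26, 9.39 and 9.37 with HGF. It fell by 0.87 on the log2 scale (SE 0.06, adjusted p 2.73e-08), so these partners moved in opposite directions.

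Among the other complex I factors NDUFAF5, which modifies the core subunit NDUFS7, rose by 0.58 ± 0.07 and NDUFAF6 by 0.35 ± 0.12. The NDUFAF6 call was lost in 3 of 17 alternative settings: the mean of its kept probe sets (0.14, adjusted p 0.147) and the removal of Control replicate 3 or HGF replicate 4. NDUFAF1 and NDUFAF2 were lower by -0.41 ± 0.09 and -0.36 ± 0.05, and NDUFAF7 was not called at -0.06. Of the complex II factors SDHAF2, which helps attach FAD to SDHA, rose by 0.33 ± 0.05. SDHAF1 and SDHAF3, which serve the iron-sulfur subunit, were higher by 0.21 and 0.17, and SDHAF4 was not called at 0.12. The calls of SDHA and SDHAF1 were each lost in 1 alternative setting, arrays shifted to the same median (-0.12, adjusted p 0.0509) and quantile normalisation (0.15, adjusted p 0.0651). That of SDHAF3 was lost without Control replicate 3, HGF replicate 3 or HGF replicate 4 (adjusted p 0.0811 to 0.092). None of the 3 paralogues was called by limma on its brightest probe set, and 0 passed an unadjusted p of 0.05 there.

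Both inhibitor groups had higher respiratory chain levels than HGF alone. These comparisons share the HGF arrays with each other and with that of HGF and Control, so a high or low HGF mean enters each of them. In HGF + PD, 56 of the 72 genes were higher than in HGF, 4 lower and 12 not called. Over all probe sets 55.4% were called (30.3% higher, 25.1% lower), and among the bright ones 72.8% were called (41.9% higher, 30.8% lower). In HGF + UO, 46 genes were higher, 5 lower and 21 not called, against 52.4% called over all probe sets (27.2% higher, 25.2% lower) and 69.5% among the bright ones (36.8% higher, 32.7% lower). Without HGF replicate 2 the counts were 56 higher and 3 lower in HGF + PD, and 45 higher and 5 lower in HGF + UO. All HGF + PD arrays lay above all HGF arrays in 54 genes and below in 4, and all HGF + UO arrays above in 47 and below in 6, where 55.6% and 54% of all probe sets had no overlap. The member medians were 0.36 and 0.25, against -0.01 and 0.00 over all probe sets. The 4 genes lower in HGF + PD were NDUFAF4, NDUFAF5, NDUFB4 and COX4I2, and only the first kept its call in every alternative setting; the count was 1 without HGF replicate 3 or without HGF + PD replicate 2, and 2 without HGF replicate 4 or without HGF + PD replicate 1.

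By complex, the subunits higher than HGF were 29 of 33 in complex I with PD and 26 with UO, with medians of 0.47 and 0.34. In complex II they were 4 and 3 of 4, with medians of 0.41 and 0.23. In complex III they were 7 and 5 of 7, with medians of 0.40 and 0.21. Complex IV had 3 and 2 of 4 higher, with medians of 0.19 and 0.10, and ATP synthase 6 of 10 in each, with medians of 0.26 and 0.18. Over the alternative settings the complex IV medians ran from 0.11 to 0.24 with PD and from 0.05 to 0.16 with UO, and the complex III median with UO from 0.16 to 0.35. With arrays shifted to the same median, 1 complex IV subunit was higher with UO. All 12 NDUFA genes were higher than HGF in both groups.

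NDUFB5 read 12.97, 12.70, 12.86 and 12.82 in HGF + PD and 12.78, 12.81 and 12.79 in HGF + UO, which is 1.74 ± 0.07 and 1.69 ± 0.07 above HGF. Adjusted p was 2.49e-11 and 8.93e-11. NDUFS6 read 12.60, 12.54, 12.62 and 12.61 in HGF + PD and 12.66, 12.61 and 12.62 in HGF + UO (1.04 ± 0.05 and 1.08 ± 0.06 above HGF). NDUFB10 was higher by 0.85 ± 0.04 and 0.75 ± 0.04. In each of these genes all inhibitor arrays lay above all HGF arrays.

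In the other complexes UQCRFS1 read 14.02, 13.91, 13.93 and 13.82 in HGF + PD and 13.95, 13.83 and 13.89 in HGF + UO, which is 0.88 ± 0.05 and 0.85 ± 0.05 above HGF. SDHB read 11.91, 11.99, 11.99 and 12.00 in HGF + PD and 11.79, 11.61 and 11.89 in HGF + UO (0.62 ± 0.06 and 0.41 ± 0.07). ATP5J2 read 13.92, 14.10, 14.07 and 13.99 in HGF + PD and 14.18, 13.87 and 14.34 in HGF + UO (0.69 ± 0.09 and 0.81 ± 0.09). No array of these groups overlapped with HGF in the 3 genes.

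Several genes raised by HGF went other ways. UQCR11 read 11.53, 11.32, 11.48 and 11.60 in HGF + PD, 0.40 ± 0.07 above HGF, and 11.09, 11.17 and 11.07 in HGF + UO, where the difference of 0.03 (interval -0.14 to 0.19) was not called. NDUFV2 was not called against HGF in either group (0.11 and -0.01). COX4I1 read 13.56, 13.50, 13.56 and 13.64 in HGF + PD (-0.05, not called) and 13.30, 13.36 and 13.42 in HGF + UO (-0.25 ± 0.05, adjusted p 0.000469). A second COX4I1 probe set gave -0.08 in HGF + UO and was not called. ATP5IF1 was lower than HGF in HGF + UO by -0.19 ± 0.06, with a call lost without HGF + UO replicate 1 or 3 and under quantile normalisation (-0.15, adjusted p 0.0587). In HGF + PD its difference of -0.12 was not called. It was called there with the mean of its kept probe sets (-0.23, adjusted p 0.011), with arrays shifted to the same median (-0.20, adjusted p 0.0263) and without HGF + PD replicate 1 (-0.15, adjusted p 0.0466).

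Among assembly factors NDUFAF3 read 10.66, 10.45, 10.60 and 10.60 in HGF + PD and 10.48, 10.34 and 10.40 in HGF + UO, 1.25 ± 0.06 and 1.08 ± 0.07 above HGF. NDUFAF4 read 8.70, 8.47, 8.61 and 8.96 in HGF + PD and 8.47, 8.47 and 8.32 in HGF + UO, lower than HGF by -0.70 ± 0.15 and -0.97 ± 0.16. NDUFAF4 thus stood between its HGF and Control levels, and NDUFAF3 above both. NDUFAF1 and NDUFAF2 were 0.91 and 0.77 above HGF with PD and 0.71 and 0.69 with UO. None of the 4 SDHAF genes was called by limma against HGF in HGF + UO (SDHAF1 was lower at an unadjusted p under 0.05), and SDHAF2 and SDHAF3 were higher in HGF + PD by 0.19 and 0.27.

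Against Control, the cells that never received HGF, most respiratory chain genes were called higher in HGF + PD. In HGF + UO 39 of 72 were, a count that fell when any 1 array of these 2 groups was left out. In HGF + PD, 56 of 72 genes were higher than in Control, 0 were lower by limma (0 also at an unadjusted p under 0.05) and 16 were not called, where 34.4% of all probe sets were called (20.2% higher, 14.3% lower). In HGF + UO, 39 were higher, 1 lower and 32 not called, where 22.3% of all probe sets were called (11.9% higher, 10.3% lower). Among the bright probe sets 49.8% were called with PD (31.5% higher, 18.3% lower) and 35.2% with UO (19.4% higher, 15.8% lower). The share of members higher was 77.8% with PD and 54.2% with UO, and the median differences were 0.24 and 0.17 against -0.02 and -0.01 over all probe sets. With single arrays left out the count higher was 51 to 57 in HGF + PD and 24 to 37 in HGF + UO. The latter was 24 without HGF + UO replicate 1. It was 26 without HGF + UO replicate 3, Control replicate 2 or Control replicate 3. Both comparisons use the same Control arrays, which also enter the HGF comparison. In 55 genes all HGF + PD arrays were above all Control arrays and in 1 below, against 39.5% of all probe sets in either direction, and in HGF + UO the counts were 48 and 1, against 31.7%.

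**Figure D3:**
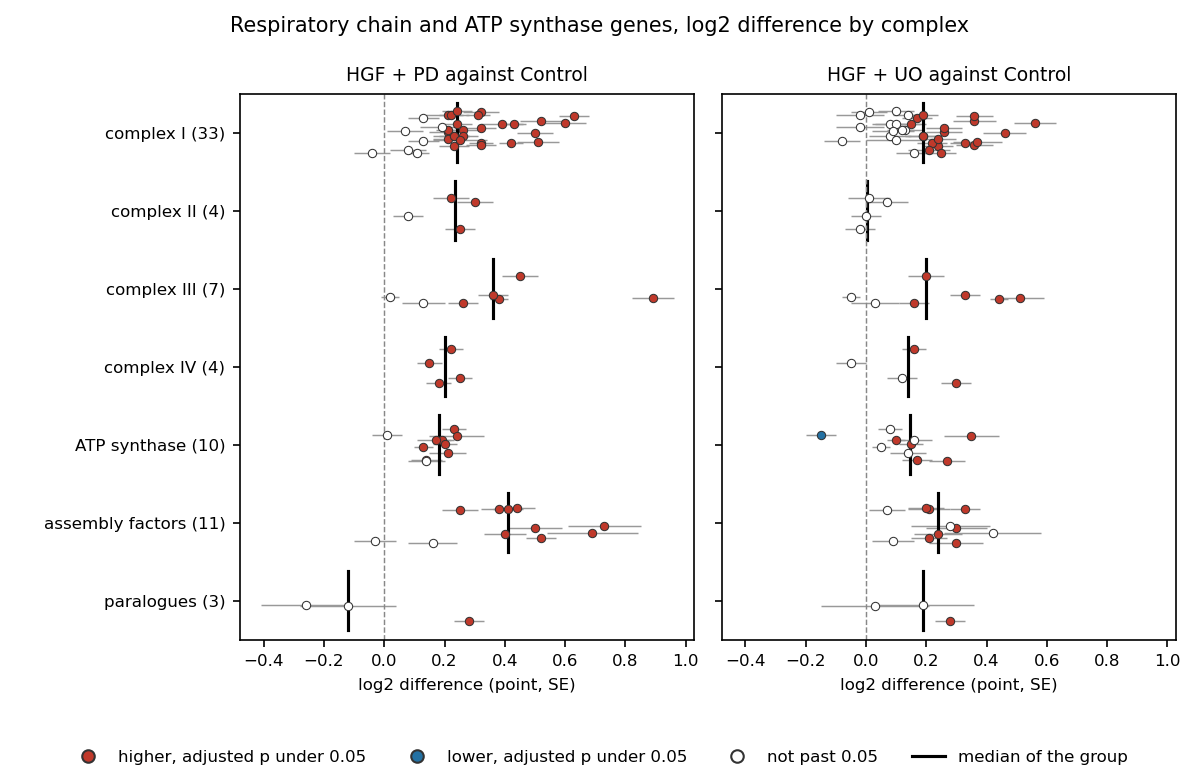
Log2 difference from Control on the horizontal axis, 1 point per gene with its SE, in rows by complex. Red marks higher, blue lower and white not called, and the black line is the row's median. With HGF + PD the medians run from 0.18 to 0.41 in the complexes and assembly factors. With HGF + UO complex II has a median of 0.01 with 0 of 4 genes called and the other rows lie higher.

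By complex, HGF + PD was above Control in 26 of 33 complex I subunits, 3 of 4 in complex II, 5 of 7 in complex III, all 4 in complex IV, 8 of 10 in ATP synthase and 9 of 11 assembly factors. The ATP synthase count was 3 when arrays were first shifted to the same median. HGF + UO was above Control in 19 complex I subunits, 0 in complex II (by limma, and 0 at an unadjusted p under 0.05), 5 in complex III, 2 in complex IV, 5 in ATP synthase and 7 assembly factors. The assembly factor count was 1 without HGF + UO replicate 1 or without replicate 3, 2 without Control replicate 2 and 3 without Control replicate 3. The ATP synthase count was 1 without HGF + UO replicate 3 and 3 without any 1 of HGF + UO replicate 1, HGF + UO replicate 2, Control replicate 2 or Control replicate 3. The complex III count was 3 without HGF + UO replicate 1 or 3 or Control replicate 2 or 3.

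The complex II values show where the groups stood. SDHB in HGF + PD was 0.22 ± 0.06 above Control (adjusted p 0.016), and in HGF + UO its difference was 0.01 with an interval of -0.14 to 0.16. SDHA differed by 0.25 ± 0.05 and -0.02, SDHC by 0.08 and 0.00, and SDHD by 0.30 ± 0.06 and 0.07, in the same order. The UO values were therefore within 0.07 of Control in all 4 genes, with intervals reaching at most 0.22.

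UQCR11 was the gene furthest above Control in HGF + PD, at 0.89 ± 0.07 (adjusted p 4.77e-07), and was 0.51 ± 0.08 above it in HGF + UO. UQCR10 was higher by 0.38 ± 0.03 and 0.44 ± 0.03. NDUFB5 was higher by 0.60 ± 0.07 and 0.56 ± 0.07, on a probe set that was 1.13 below Control with HGF alone. Subunits not called with HGF were also above Control: NDUFAB1 read 13.10, 12.81, 12.89 and 12.93 in HGF + PD and 12.87, 12.95 and 12.85 in HGF + UO, 0.50 ± 0.06 and 0.46 ± 0.07 above it. With the mean of its kept probe sets the NDUFAB1 difference in HGF + PD was 0.19 and its call was lost (adjusted p 0.0827). NDUFA8, an accessory subunit, read 11.17, 11.09, 11.23 and 11.29 in HGF + PD and 10.90, 10.92 and 10.95 in HGF + UO, against 10.59, 10.48, 10.53 and 10.67 in Control (0.63 ± 0.05 and 0.36 ± 0.06). All arrays of both groups lay above the Control arrays in these genes.

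Each of the 4 complex IV subunits was above Control in HGF + PD, by 0.15 (COX4I1) to 0.25 (COX5B). COX8A read 12.78, 12.77, 12.80 and 12.84 in Control, 12.87, 12.97, 13.05 and 13.01 in HGF + PD and 13.04, 13.12 and 13.14 in HGF + UO, higher by 0.18 ± 0.04 and 0.30 ± 0.05. NDUFA4 was higher by 0.22 and 0.16. ATP5MC2 was the gene lower than Control in HGF + UO, by -0.15 ± 0.05 (adjusted p 0.0462), and this call was lost in 11 of 16 alternative settings, among them the removal of any 1 Control array or of HGF + UO replicate 1 or 3.

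**Figure D4:**
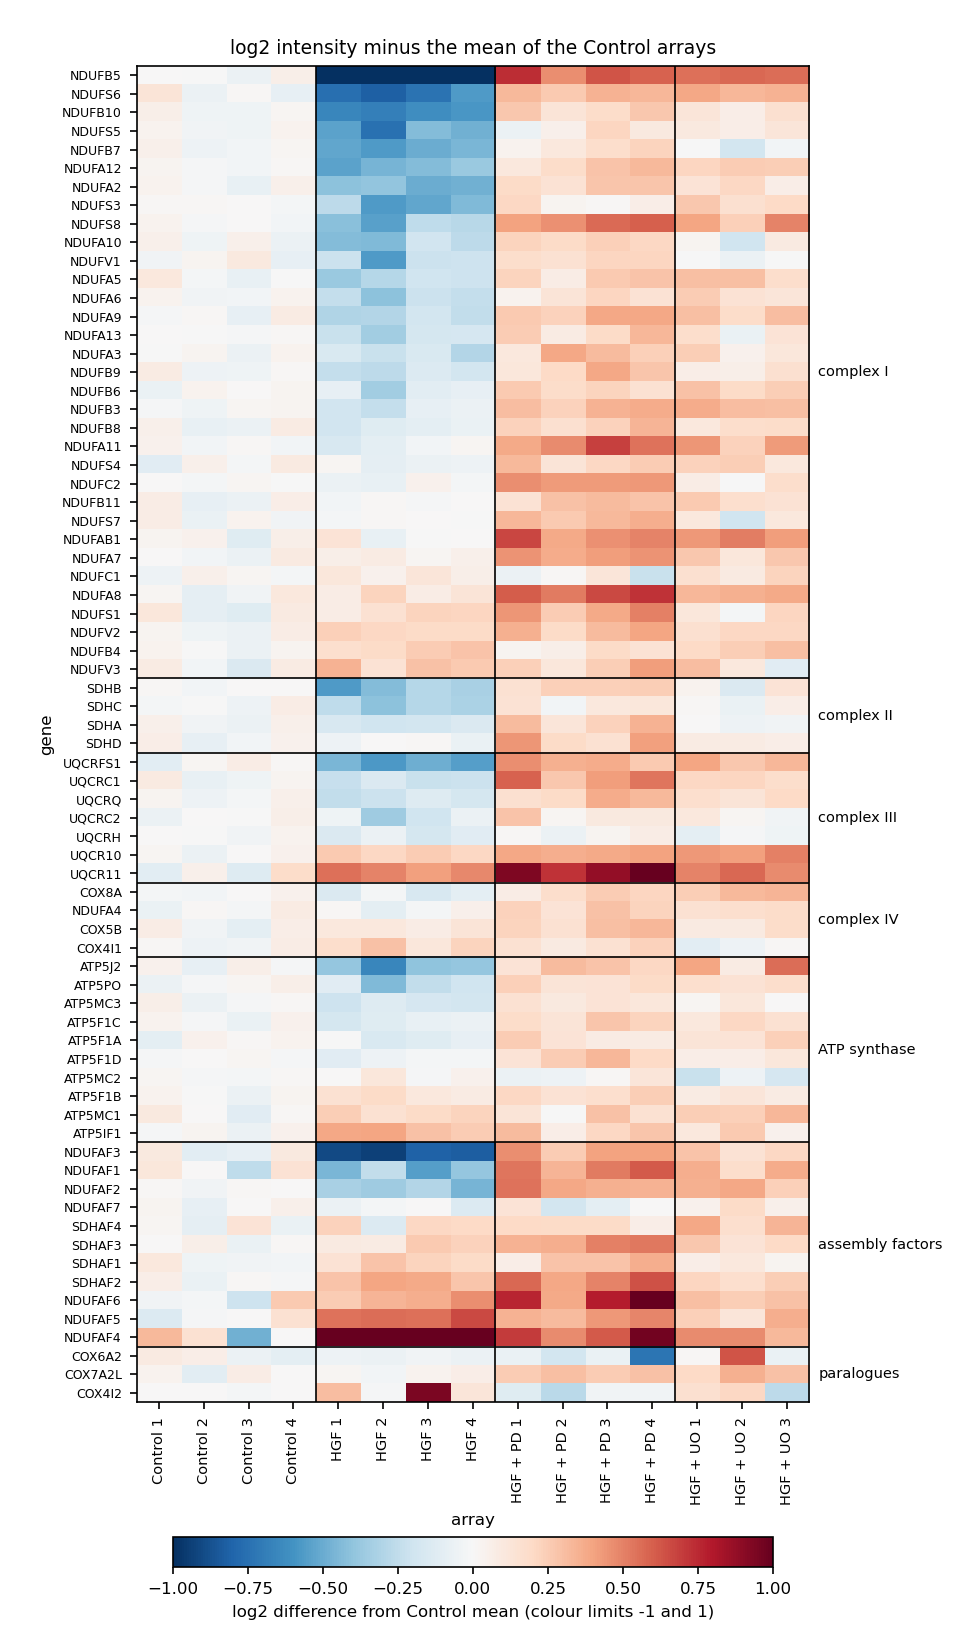
Heat map of the 72 genes (rows, by complex) on the 15 arrays (columns), coloured by log2 intensity minus the mean of the Control arrays, with colours ending at -1 and 1. The HGF columns are blue for most of complex I, and both inhibitor groups are mainly red, with the deepest red in UQCR11 and NDUFAF6 of HGF + PD. NDUFAF4 is red in all HGF, HGF + PD and HGF + UO arrays.

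The paralogues and the genes near the filter complete the family. COX7A2L, which helps join complexes III and IV, was not called with HGF (0.02, interval -0.08 to 0.12) and was 0.28 ± 0.05 above Control in both inhibitor groups. With the mean of its 2 kept probe sets it was called higher with HGF (0.15, adjusted p 0.00776). For HGF + UO against HGF that mean gave 0.05, and the call was lost (adjusted p 0.447). COX4I2, the isoform of COX4 linked to low oxygen, read 4.32, 4.32, 4.29 and 4.32 in Control, 4.62, 4.30, 5.25 and 4.43 with HGF, 4.19, 4.04, 4.28 and 4.28 in HGF + PD and 4.47, 4.52 and 4.05 in HGF + UO. It and COX6A2, the isoform of heart and muscle (group means 4.29 to 4.74), were just inside the filter level of 4, where intensities approach the background. COX7A1, another muscle isoform, reached 4 on 1 array only (3.82 to 4.01 over the 15 arrays), and NDUFA4L2, a paralogue of NDUFA4 induced in low oxygen, lay between 2.84 and 3.05. Both were left out by the filter.

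Other mitochondrial genes were taken from lists chosen by function. Of 26 electron carriers and assembly factors outside the symbol rule, 4 were higher and 6 lower with HGF, with a median of -0.02. The share called was 38.5%, against 55.6% of all probe sets and 73.1% of the bright ones. Against HGF, 19 were higher and 1 lower in HGF + PD, and 13 higher and 2 lower in HGF + UO. The shares higher were 73.1% and 50%, beside 41.9% and 36.8% of the bright probe sets and 30.3% and 27.2% of all. COX11, which delivers copper to complex IV, fell from 9.39 to 8.10 in mean (-1.29 ± 0.08) and was above HGF by 1.28 in HGF + PD and by 1 in HGF + UO. TTC19, a complex III factor, and COX20, a complex IV factor, were lower by -0.87 and -0.66. LRPPRC, which stabilises mitochondrial messenger RNA, ACAD9, a complex I assembly factor, and TMEM70, an ATP synthase assembly factor, were higher by 0.54, 0.45 and 0.40. Against Control, 17 of the 26 were higher and 1 lower in HGF + PD, and 10 higher and 1 lower in HGF + UO. The shares higher were 65.4% and 38.5%, beside 31.5% and 19.4% of the bright probe sets and 20.2% and 11.9% of all.

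**Figure D5:**
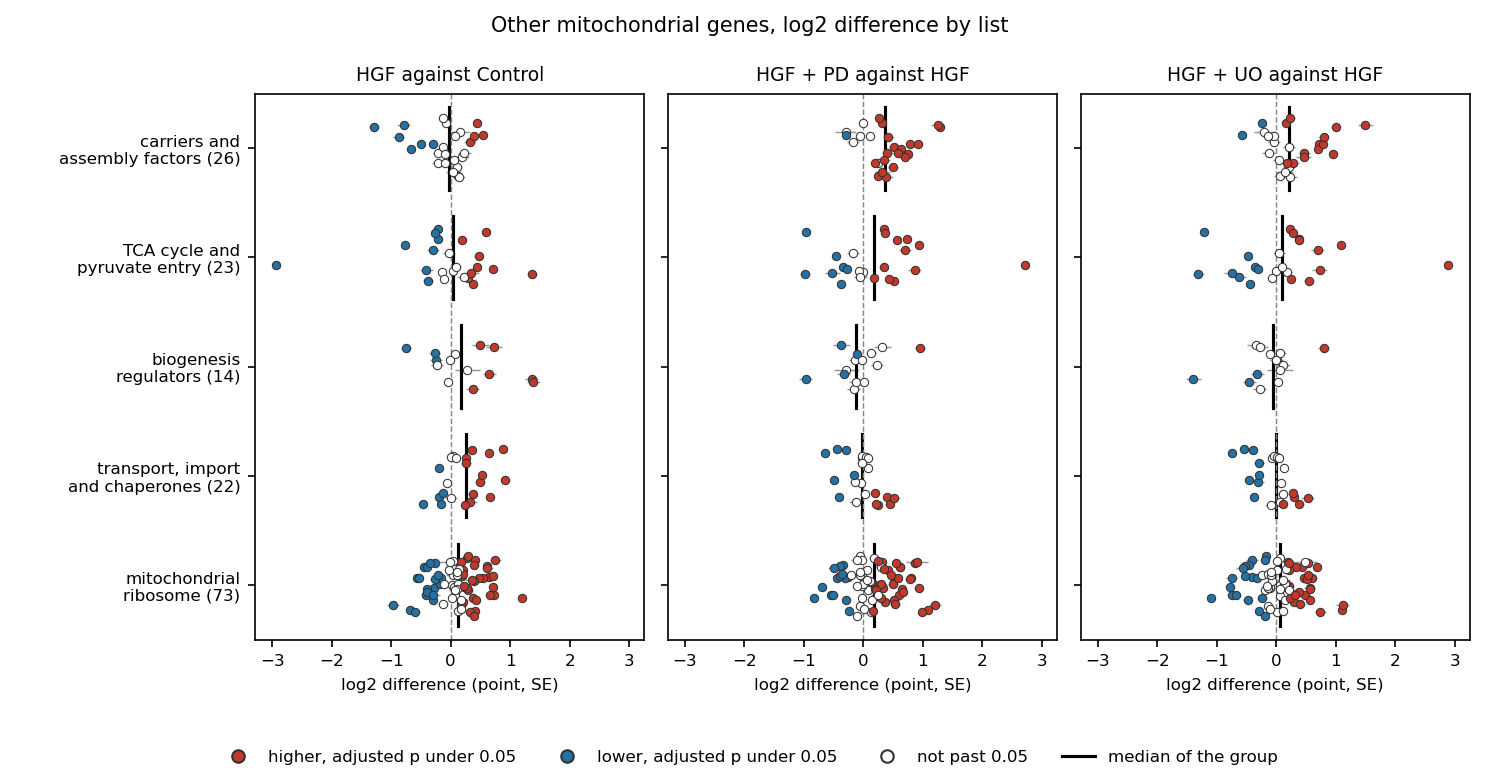
Each point is 1 gene of 5 other mitochondrial lists, placed by its log2 difference with its SE, with the number of genes in brackets. Red marks higher, blue lower and white not called, and the black line is the list's median. MPC1 is the isolated point at -2.93 in the left panel and at 2.71 and 2.89 in the others. Every list has genes on both sides of 0 in the left panel.

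Of 23 genes of the TCA cycle and pyruvate entry, which feed the chain with fuel, 9 were higher and 8 lower with HGF. These shares, 39.1% and 34.8%, lay near those of the bright probe sets, 35.1% and 38%. Over all probe sets they were 26.3% and 29.2%. MPC1, a subunit of the carrier that brings pyruvate into mitochondria, lay between 13.38 and 13.45 on the Control arrays, 10.34 and 10.69 with HGF, 13.13 and 13.24 in HGF + PD and 13.31 and 13.44 in HGF + UO. It was lower with HGF by -2.93 ± 0.06 (adjusted p 1.19e-13). Its partner MPC2 was lower by -0.76 ± 0.05, and 0.94 and 1.09 above HGF in the inhibitor groups. SUCLG1, a subunit of succinyl-CoA ligase, was lower by -0.27. DLAT, a subunit of pyruvate dehydrogenase, and PDK1, a kinase that switches this enzyme off, were higher by 1.37 ± 0.08 and 0.71 ± 0.06. IDH2, which makes mitochondrial NADPH, was higher with HGF by 0.59 ± 0.05 and lower than Control in HGF + PD and HGF + UO by -0.37 and -0.62.

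Regulators of mitochondrial biogenesis had 6 of 14 genes higher and 3 lower with HGF, or 42.9% and 21.4%. Beside these stood 35.1% and 38% of the bright probe sets and 26.3% and 29.2% of all. The level that defines the bright probe sets was set from the members and not from this list. TFB1M, a methylase of mitochondrial ribosomal RNA, was higher by 1.39 ± 0.11, and MYC, a transcription factor of growth, by 1.36 ± 0.11. PPRC1, a coactivator of the PGC-1 family, was higher by 0.65, while the deacetylase SIRT3, the mitochondrial RNA polymerase POLRMT and the nuclear receptor ESRRA were lower by -0.75, -0.27 and -0.25. The call of ESRRA was lost in 11 of 17 alternative settings and that of POLRMT in 3, without Control replicate 2, HGF replicate 1 or HGF replicate 2. TFB1M stayed above Control in HGF + PD (1.27) and HGF + UO (0.94), and MYC was 0.39 above it in HGF + PD and not called in HGF + UO (-0.03).

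Carriers, import proteins and chaperones had 12 of 22 genes higher and 5 lower with HGF, or 54.5% and 22.7%. Beside these stood 35.1% and 38% of the bright probe sets and 26.3% and 29.2% of all. Against Control, 12 were higher in HGF + PD and 10 in HGF + UO, and 0 were lower by limma in either (1 and 0 lower at an unadjusted p under 0.05). The shares higher were 54.5% and 45.5%, beside 31.5% and 19.4% of the bright probe sets and 20.2% and 11.9% of all. SLC25A5, an ADP/ATP carrier, was higher by 0.88 ± 0.04, and the outer membrane channels VDAC2 and VDAC1 by 0.67 and 0.52, while VDAC3 was lower by -0.16. The fusion protein MFN1 and the chaperone HSPE1 were lower by -0.46 and -0.20. Of 73 mitochondrial ribosome genes 33 were higher and 19 lower with HGF, with a median of 0.13. These were 45.2% and 26%, beside 35.1% and 38% of the bright probe sets and 26.3% and 29.2% of all. MRPL1, MRPL39 and MRPS31 were higher by 1.20, 0.71 and 0.72, and MRPL50, MRPL36 and MRPS14 lower by -0.97, -0.69 and -0.53. Against Control, 49 ribosome genes were higher and 1 lower in HGF + PD, and 29 higher and 0 lower by limma in HGF + UO, where 2 were lower at an unadjusted p under 0.05. The ribosome shares higher were 67.1% and 39.7%, beside the same 31.5% and 19.4% of the bright probe sets.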

How the data were processed

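RNA from 15 MDCK cultures was hybridised to Affymetrix canine arrays. The deposited table gives linear intensities; per the submitters' processing notes the authors used GCRMA to condense the probes of each set; its version and the transcript annotation behind it are not given in the sources used here. GCRMA presses dim probe sets towards a floor. Precision is limited by the number of arrays.

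The deposited intensities were put on a log2 scale without further scaling. After 111 control probe sets were left out, those with log2 of at least 4 on at least 3 arrays were kept (24904 of 43035). Members came from the platform annotation, using probe sets with 1 symbol; 43 members had several probe sets kept. Of the brightest ones, 36 carry the suffix _s_at and 3 the suffix _x_at, which can match more than 1 transcript. Members and lists were chosen with earlier results of these data known.

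Group means over the 4 groups were fitted with limma 3.58.1 in R 4.3.3 (lmFit, eBayes with a variance trend) and tested for 5 comparisons with Benjamini-Hochberg adjustment over all probe sets kept. No list was tested as a set. The script was tested on simulated data. Named genes were, in each complex, up to 3 with the lowest adjusted p in each direction with HGF, well-known subunits set in advance, the 3 with the lowest adjusted p each way in the other comparisons, members whose probe sets were called in opposite directions, and the first 3 each way of each other list. Further members (such as NDUFS5, NDUFB7 and the other subunits and assembly factors) were named to complete a complex, after their values were seen. COX5A is not reported here. Replicate numbers were not treated as pairs in the main fit. The correlation of deviations was over 0.1 in 8 of 21 same-number pairs. With 3 or 4 arrays per group it cannot tell whether same-number cultures were grown together. Alternatives were the filter, the scaling, the pseudocount, the variance trend, the arrays fitted, a replicate block, the mean of a gene's probe sets, and leaving out each array.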

Additional observations from a re-analysis of the deposited data

Results flagged for a closer look

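Of 312 groups of 4 arrays tested for a single array far from the rest, 15 had one, where chance marks about 1 in 20 groups. HGF replicate 2 was the array in 6 of them. It was the lowest HGF array for NDUFV1 (11.69, others 12.04 to 12.05), ATP5J2 (13.13, others 13.38 to 13.40), NDUFA6 (11.56, others 11.73 to 11.75), NDUFB6 (13.70, others 13.94 to 13.96) and SDHAF4 (11.72, others 12.06 to 12.09), and the highest for MPC2 (12.52, others 12.41 to 12.43).

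In HGF + PD, replicate 1 was the lowest array for SDHB (11.91, others 11.99 to 12.00) and NDUFB11 (11.46, others 11.60 to 11.63), and replicate 4 for SDHAF4 (11.93, others 12.05 to 12.06). In Control, replicate 3 was the lowest for NDUFAB1 (12.31, others 12.46 to 12.49) and COX4I2 (4.29, others 4.32), and replicate 4 the highest for COX7A1 (3.94, others 3.85) and PPRC1 (8.16, others 7.72 to 7.79). In HGF, replicate 4 was the highest for NDUFAF5 (9.16, others 9.04 to 9.06) and replicate 1 for NDUFA4L2 (3.05, others 2.86 to 2.87). COX4I2, COX7A1 and NDUFA4L2 are near the background. The cause was not tested in any of these.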

How the results depend on the processing

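The count of members lower in HGF + PD than in HGF (4) was 7 when arrays were shifted to the same median and 2 when only the 2 groups compared were fitted, and 1 to 4 when single arrays were left out. The count higher in HGF + UO than in Control (39) was 24 to 37 when single arrays were left out and 29 to 42 in the other settings. The count lower there (1) was 0 without the filter on dim probe sets, with arrays shifted to the same median, with quantile normalisation and without the variance trend, and 0 to 1 when single arrays were left out. With the mean of a gene's kept probe sets, NDUFC1 turned to -0.20 with HGF against Control (adjusted p 0.000136), 0.29 for HGF + PD against HGF (2.53e-06) and 0.10 for HGF + PD against Control (0.0328). NDUFS1 turned to -0.13 with HGF (0.04) and 0.20 for HGF + UO against HGF (0.00631). Except for probe set choice, the cause was not tested. The other counts over all 72 members stayed within 1.5 times, and with HGF they were 12 to 17 higher and 31 to 35 lower over single arrays left out, and 13 to 18 and 28 to 37 in the other settings. Counts by complex moved further. With arrays shifted to the same median, complex I had 5 higher with HGF (3) and complex IV 2 (1), and complex IV had 1 higher in HGF + UO than in HGF (2). For HGF + UO against Control, the assembly factors higher (7) were 4 without the filter or with only the 2 groups fitted, ATP synthase (5) had 3 without the filter, with shifted arrays or without the variance trend, and complex III (5) had 3 without the filter.

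With the replicate number as a replicate block, the counts with HGF were 16 higher and 36 lower, 5 were lower in HGF + PD than in HGF, and 0 were lower in HGF + UO than in Control. Whether cultures with the same replicate number were grown together is not known. Same-number deviations correlated from -0.247 to 0.412 with a median of 0.054, and 0.01 between other pairs. Of the tests of single named genes under all settings, 8057 kept their side of the threshold, 296 lost a call, 98 gained one and 5 turned direction. Changes of members are mostly under 0.5 log2, and intensities near the floor have no reliable order.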

Other observations

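Probe sets of 1 gene did not always agree. Of 43 members with several probe sets kept, all gave the same call in 27 for HGF against Control, 36 for HGF + PD against HGF, 28 for HGF + UO against HGF, 31 for HGF + PD against Control and 24 for HGF + UO against Control. NDUFS1 had 4 probe sets kept. With HGF they gave 0.16 and 0.12 (not called), 0.19 (higher) and -1 (lower), and the last, with a mean log2 of 8.92, exceeded HGF by 1.10 with PD and by 1.02 with UO.

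Another NDUFB6 probe set, with a mean log2 of 8.63, was lower with HGF by -1.24, while the brightest gave -0.16 and the next brightest -0.07. It exceeded HGF by 1.07 with PD and by 1.44 with UO. The second NDUFC1 probe set was lower with HGF by -0.47 and 0.71 and 0.77 above HGF in the inhibitor groups, and the brightest was called in none of the 5 comparisons. NDUFAB1 had a probe set with a mean log2 of 11.70 that was lower with HGF by -0.31. For HGF + UO against HGF, the brightest gave 0.44 and was called higher, and a dim one with a mean log2 of 5.65 gave -0.43 and was called lower. Which transcripts the differing probe sets read was not tested.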
